A study of Rattus norvegicus with 4 samples.

Results

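The endothelial nuclei described here are 7309 of the 116661 barcodes with at least 500 detected genes in 4 single-nucleus RNA libraries of rat adipose tissue, 6.27% of them. They came from thoracic aorta perivascular adipose tissue (taPVAT), the brown-like fat around the upper aorta, and from subscapular brown adipose tissue (BAT), with 2 libraries per tissue. All libraries were from male SS/HsdMcwiCrl rats, the Dahl salt-sensitive strain, aged 16 weeks, labelled normal, and no treatment is named in the labels. About 50 mg of snap-frozen tissue per sample gave the nuclei, with a target of 10000 nuclei in the droplet kit. The labels do not say that the libraries of a tissue came from separate rats, nor whether one rat gave both tissues, so the p-values below measure only the spread between these libraries, which may be technical.

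Endothelial cells line the blood vessels. In fat, capillary endothelium captures triglyceride-rich lipoproteins and passes fatty acids to the adipocytes, and venous endothelium is the usual site of leukocyte adhesion and stores von Willebrand factor. Arterial endothelium is set apart by strong Notch signalling, and lymphatic endothelium by the transcription factor Prox1.

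A barcode was counted as an endothelial nucleus when it held at least 4 unique molecular identifiers (UMIs, 1 per captured RNA molecule) and at least 3 detected genes among Cyyr1, Flt1, Ptprb, Adgrf5, Btnl9, Pecam1, Cdh5, Kdr and Emcn. It could hold at most 1 UMI over genes of stromal, immune, mural and lymphatic cells (Pdgfra, Dcn, Ptprc, Mrc1, Myh11, Rgs5, Prox1 and Mmrn1) and at most 1 UMI over the arterial genes Gja5, Gja4, Sox17, Sema3g and Hey1. Pecam1 has no row under that symbol in the files, so 8 of the 9 endothelial genes were used. The nuclei were thus chosen by the UMI counts of these genes, which carry no test. The rule took 3088 of 42979 kept barcodes in taPVAT replicate 1 and 435 of 12336 in taPVAT replicate 2. In BAT it took 1969 of 34553 in replicate 1 and 1817 of 26793 in replicate 2. A further 719 barcodes met the endothelial minimum but had more than 1 arterial UMI, and 103015 barcodes with at most 1 UMI over the endothelial genes served as the non-endothelial background.

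The nuclei were shallow. A median nucleus held 2220.5 and 1962 UMIs in the taPVAT libraries and 2194 and 2047 in the BAT libraries, below the 2811 to 4693.5 of the non-endothelial barcodes. Mitochondrial genes gave a median of 11.5% and 17.0% of the UMIs of a nucleus in taPVAT and 13.8% and 14.6% in BAT, against 6.58% to 9.99% in the non-endothelial barcodes. Adipocyte RNA was present in them throughout: the 14 adipocyte marker genes took 1.86% and 1.93% of their UMIs in taPVAT and 1.72% and 2.49% in BAT, which is 57.4% to 79.9% of the summed level of the list in non-endothelial barcodes. Between any pair of libraries, 0 to 2 member barcodes had the same sequence. Over 24 endothelial genes that the rule did not use, the members at the minimum, with 4 endothelial UMIs, had a summed level of 3916 and 4370 CPM (UMIs of a gene per 1000000 UMIs) in taPVAT and 4107 and 3790 in BAT. The barcodes just outside, with 3 such UMIs, had 3662, 4410, 3139 and 3554 CPM, higher than the members at the minimum in taPVAT replicate 2, against 1403 to 2074 CPM in the non-endothelial barcodes. Most of that background was Ptprm, at 1256 to 1913 CPM there. Without Ptprm, left out after its level was seen, the other 23 genes had 1764, 2733, 1973 and 2015 CPM at the minimum, 1454, 2441, 1202 and 1683 just outside, and 110 to 161 in the non-endothelial barcodes.

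The share of kept barcodes that were endothelial was 7.18% and 3.53% in the taPVAT libraries and 5.70% and 6.78% in the BAT libraries. The tissues overlapped, since both BAT values lay between those of taPVAT. The means were 5.36% ± 2.59 (SD, n = 2) and 6.24% ± 0.766 (SD, n = 2), a difference of -0.884 percentage points with p = 1 (exact permutation over libraries, two-sided), where 2 libraries against 2 cannot go below 0.33. Without taPVAT replicate 2 the difference was 0.945 points, in the other direction.

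Genes that the rule did not use described the same nuclei as endothelial. Of 23 endothelial genes outside the rule that were tested, 22 were at 2 times the non-endothelial level or more in every library. The exception was Ptprm, a receptor phosphatase, whose RNA was also abundant outside the endothelium. Erg, the ETS transcription factor that maintains endothelial identity, was at 112 and 145 CPM in taPVAT and 115 and 74.8 in BAT, on average 133 times its level in the non-endothelial barcodes. Nos3, the endothelial nitric oxide synthase, was at 102, 263, 114 and 144 CPM in the same order, 93.7 times on average. The highest mean ratio, 214, was that of Ccdc85a, at 615 and 730 CPM in taPVAT and 821 and 513 in BAT. Cdh13, which encodes T-cadherin, a receptor that binds adiponectin, was at 1427 and 2488 CPM in taPVAT and 1557 and 1667 in BAT. Dach1, a transcription factor, the splicing regulator Nova2 and the adhesion receptor gene Adgrg1 were also among the 15 genes with the highest ratios. All of these ratios describe nuclei that were picked for related genes, so they are given with no test.

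**Figure D1:**
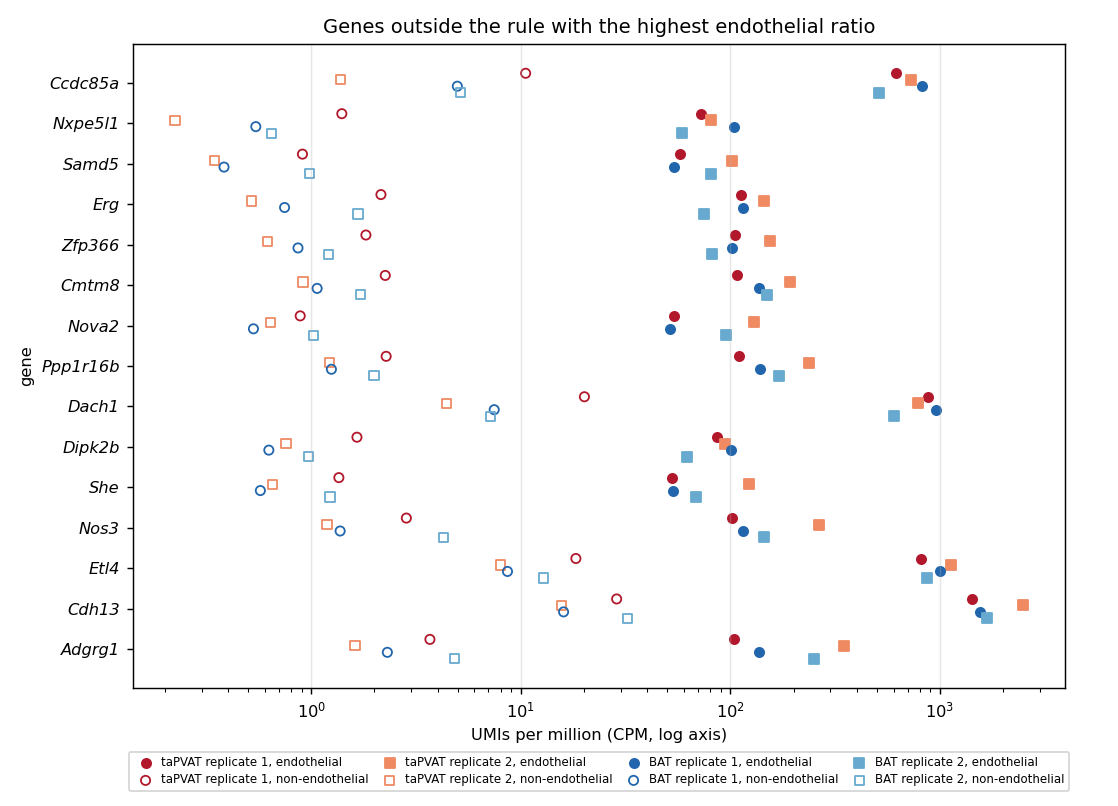
CPM (log axis) of the 15 genes with the highest mean ratio among genes outside the rule, in the endothelial nuclei (filled) and the non-endothelial barcodes (open) of each library. Every filled point is above 50 CPM and lies to the right of all open points of its gene; mean ratios run from 88.6 for Adgrg1 to 214 for Ccdc85a.

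Capillary markers were present in both tissues. Of 12 listed genes 11 had a row in the files, and 7 of these were at 2 times the non-endothelial level or more in every library. Gpihbp1, which carries lipoprotein lipase across the capillary wall, was at 53.7 and 163 CPM in taPVAT and 79.6 and 95.5 in BAT. Cd300lg, a mucin-like receptor of microvessels, was at 30.3, 61.3, 32.3 and 52.0 CPM, where the non-endothelial barcodes had 0.320 to 0.636. Meox2, which with Tcf15 drives fatty acid uptake genes in endothelium, was at 328 and 400 CPM in taPVAT and 350 and 236 in BAT. For all 3 genes the tissues overlapped. Aqp7, the glycerol channel, was on the list too, but its 52.9 to 63.9 CPM was close to the 55.6 to 68.3 CPM of the non-endothelial barcodes.

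Venous markers were detected in a minority of nuclei at equal depth. Of 9 listed genes 8 had a row in the files. Only 4 of these 8 were at 2 times the non-endothelial level or more in every library. After each nucleus was thinned to 800 UMIs, so that depth did not set the share, 19.2% and 26.7% of taPVAT nuclei and 17.3% and 22.6% of BAT nuclei had a UMI of at least 1 of 8 venous genes. Before thinning the shares were 41.8%, 55.6%, 44.3% and 50.7%. The same thinned share was 6.64% and 8.03% in the non-endothelial barcodes of taPVAT and 5.54% and 9.41% in those of BAT, with median depths of 2826 to 4638.5 UMIs before thinning. The tissues overlapped: the difference of 3.01 percentage points had p = 0.667 by the same exact permutation, whose smallest possible value is 0.33. Without taPVAT replicate 2 it was -0.757.

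Part of the data went against a purely capillary and venous identity. Although the rule allowed at most 1 UMI over 5 arterial genes, 7 of 10 arterial genes outside the rule were at 2 times the non-endothelial level or more in every library. Efnb2, the arterial ephrin ligand, was at 92.3 and 102 CPM in taPVAT and 95.2 and 77.4 in BAT, against 2.32 to 3.52 CPM outside the endothelium. The nuclei were also set beside the 719 barcodes that were picked for more arterial UMIs. The share of all genes with each pattern was not counted, so the counts describe these lists only. In all 4 libraries 7 of the 10 arterial genes were lower in the members (Bmx, Dll4, Efnb2, Fbln5, Jag1, Mecom and Nebl) and none was higher. The capillary genes Aqp1, Cd300lg, Fabp4, Fabp5, Gpihbp1 and Rgcc were higher in the members in all 4 libraries, 6 of 11, while the capillary gene Cav1 and the venous gene Vwf were lower in all 4. Of 24 general endothelial genes 11 were lower in the members in all 4 libraries, Tek, Tie1 and Cldn5 among them, and 2 were higher, Calcrl and Eng. The members are therefore called endothelial nuclei here, without a vessel type.

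Clustering divided them into 4 subsets. It used 528 of the 556 genes that were at 3 times the non-endothelial level or more, and at 5 CPM or more, in each library. The other 28 were left out because their unadjusted tissue p was under 0.05. The number of subsets and their description were chosen after the values were seen, and no subset carries a test against the others. Subset 1 had 3624 nuclei, subset 2 had 2080, subset 3 had 1218 and subset 4 had 387.

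Subset 3 held the arterial genes. Of 10 arterial genes outside the rule, 9 had their highest mean level there, all but Hey2. Nebl, Fbln5, Efnb2 and Dll4 were among the 528 genes that formed the subsets, so their levels are no independent support for the name. Of 20 general endothelial genes 7 were also highest there, Esam, Cldn5 and Podxl among them. Its leading genes included Dkk2, a Wnt inhibitor, Nebl, the collagen gene Col8a1, Fn1, which encodes fibronectin, and Fbln5. Nebl was at 485 and 918 CPM in the taPVAT nuclei of subset 3 and at 497 and 676 in those of BAT, with means of 7.38, 18.3 and 148 CPM in subsets 1, 2 and 4. Efnb2 was at 180, 170, 177 and 154 CPM in subset 3, and at 33.1 to 46.4 in subset 4.

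Subset 4 held the venous genes and is called venous-like. All 8 venous genes in the files had their highest mean level there, but so did 11 of 20 general endothelial genes, 5 of 8 endothelial genes of the rule and 2 of 3 lymphatic genes that reached 20 CPM in a subset. The venous genes Ephb4 and Aplnr and the general genes Tek, Tie1 and Erg were among the 528 genes that formed the subsets. Il1r1, the interleukin-1 receptor, was at 398 and 369 CPM in the taPVAT nuclei of subset 4 and at 331 and 390 in those of BAT, against 23.8 to 106 CPM in the nuclei of the other subsets. Nr2f2, the transcription factor that sets venous identity, was at 97.9, 190, 63.6 and 92.7 CPM there. Selp, the leukocyte-binding P-selectin, was at 21.6 CPM in taPVAT replicate 1, 38.1 and 83.5 in BAT, and had no UMI in the 21 subset 4 nuclei of taPVAT replicate 2. Other leading genes were Mctp1, Pgm5, Plvap, which forms the diaphragms of endothelial pores, Slco2a1, the prostaglandin transporter, and Thsd7a. Plvap followed the replicate number within subset 4, at 42.0 and 38.1 CPM in replicate 1 of taPVAT and BAT and at 321 and 343 in replicate 2. Btnl9, one of the genes of the rule, was at 31.8 and 42.4 CPM in replicate 1 of subset 4 and had 0 UMIs in replicate 2 of either tissue.

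**Figure D2:**
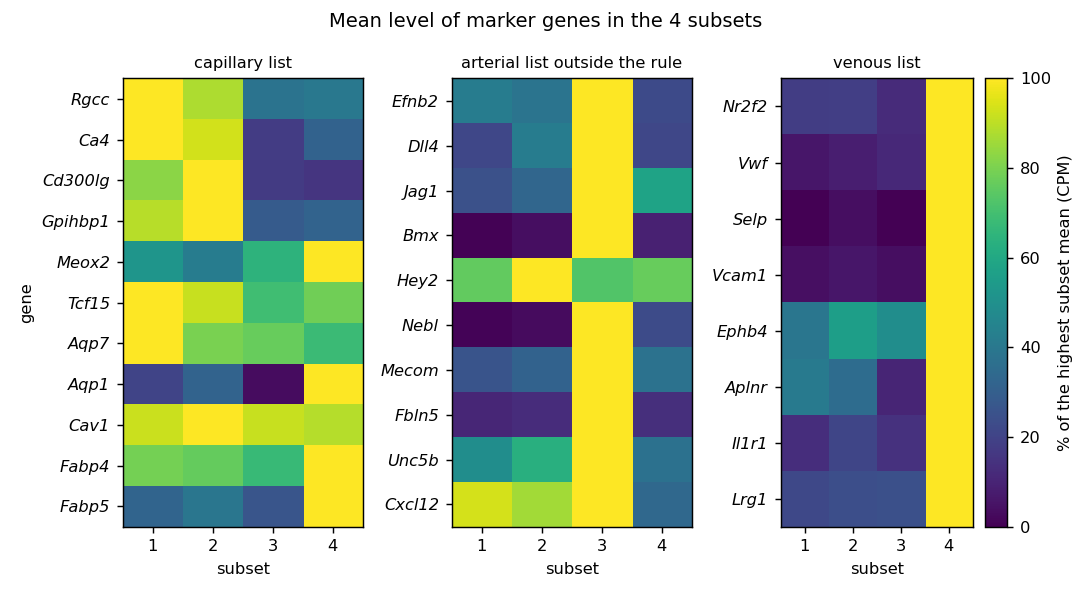
Mean CPM over the 4 libraries of each capillary, arterial and venous list gene in the 4 subsets, as a percentage of the gene's highest subset mean. All 8 venous genes are highest in subset 4 and 9 of 10 arterial genes in subset 3, while the 11 capillary genes are spread over subsets 1, 2 and 4. Some genes of each list were among those that formed the subsets.

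The capillary list was split. Rgcc, Ca4, Tcf15 and Aqp7 were highest in subset 1, Cd300lg, Gpihbp1 and Cav1 in subset 2, and Meox2, Aqp1, Fabp4 and Fabp5 in subset 4. Subsets 1 and 2 followed the replicate number and not the tissue: subset 1 took 67.1% of the nuclei of taPVAT replicate 1 and 73.4% of BAT replicate 1, but 6.44% and 4.29% of replicate 2. Subset 2 took 70.6% and 81.2% of the nuclei of replicate 2, but 4.47% and 8.08% of replicate 1. The labels give no date or batch for a replicate number. Subset 1 was led by Pcdh17, a protocadherin. Haemoglobin genes were among the 10 genes leading subset 2, with Cd300lg. Hba-a1 was at 1082 and 221 CPM in taPVAT and 66.6 and 561 in BAT there. In subset 1 it was at 104, 131, 117 and 84.9 CPM, higher than in subset 2 only in BAT replicate 1. Of 13 adipocyte genes 9 were highest in subset 1, 3 in subset 2 and 1 in subset 4. Barcodes marked as doublets were 3.57% to 20.5% of subset 1 by library and 7.82% to 21.4% of subset 2. They were 6.18% to 15.3% of subset 3 and 6.49% to 15.4% of subset 4. The 21.4% and the 15.3% are those of BAT replicate 1. There the doublet caller Scrublet called none, and the barcodes with the highest scores were marked instead.

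Subset 3 took 19.9% and 18.2% of taPVAT nuclei and 15.2% and 12.3% of BAT nuclei. Subset 4 took 8.48% (95% exact binomial interval 7.53% to 9.52%) and 4.83% (3.01% to 7.29%) of taPVAT nuclei, 262 and 21 of them. In BAT it took 3.30% (2.56% to 4.19%) and 2.15% (1.53% to 2.92%), 65 and 39 nuclei. Both taPVAT shares of both subsets were above both BAT shares, with no test, and the intervals cover counting error only. The intervals of taPVAT replicate 2 and BAT replicate 1 overlapped. When each library was centred before clustering, an alternative chosen after seeing the data that evens out shares between libraries, 3 groups resulted. The one that held 372 of the 387 nuclei of subset 4 took 15.6% and 13.6% of taPVAT nuclei and 13.3% of each BAT library. It also held 357 nuclei of subset 1, 306 of subset 2 and 8 of subset 3, so most of its nuclei were not those of subset 4. The one that held 1184 of the 1218 nuclei of subset 3 took 22.8% of each taPVAT library and 21.4% and 23.2% of the BAT libraries, which overlap.

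**Figure D3:**
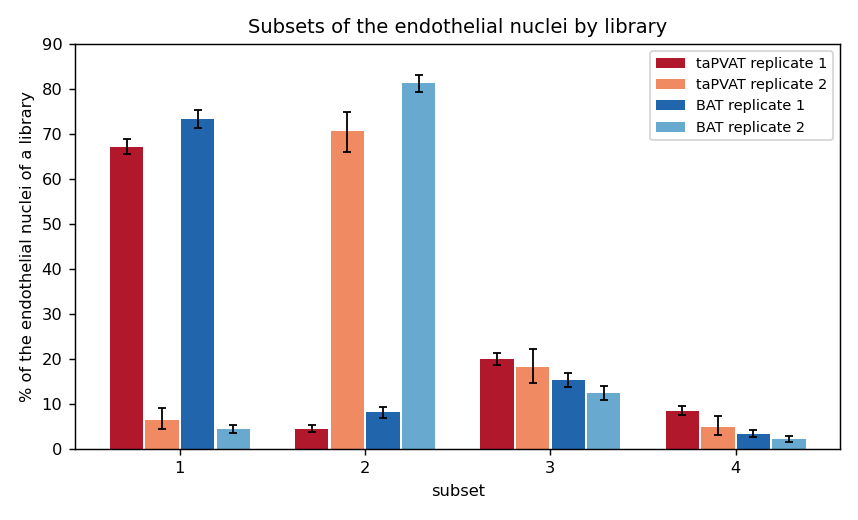
Percentage of the endothelial nuclei of each library in the 4 subsets; bars are shares and error bars 95% exact binomial intervals. Subsets 1 and 2 follow the replicate number, and subset 4 runs from 8.48% in taPVAT replicate 1 to 2.15% in BAT replicate 2.

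The second question of the design was how the endothelial RNA of taPVAT and BAT differed. UMIs were summed over the endothelial nuclei of each library and compared with edgeR's quasi-likelihood test. Of 12159 genes tested, 0 passed an adjusted p of 0.05 (0% called), and the smallest adjusted p of the edgeR test was 0.796. At an unadjusted p under 0.05 there were 239 genes (1.97%), 183 higher in taPVAT (1.51%) and 56 lower (0.461%). When no gene differs, this cutoff is expected to take a fraction of 0.05 of the genes, which is more than was found. DESeq2 on the same sums called 15 genes, 14 of them higher in taPVAT and 0 of them among the 556 genes enriched in the endothelium. With the replicate number as a further term in the fit, edgeR called 114, 90 higher and 24 lower. No label says what a number marks. With no filter on low counts edgeR called 63, 44 higher and 19 lower, and it called 1, 17, 12 and 26 genes without taPVAT replicate 1, taPVAT replicate 2, BAT replicate 1 and BAT replicate 2 in turn. The 556 genes enriched in the endothelium had 28 higher (5.04%) and 0 lower at that unadjusted level in edgeR, and 0 past the adjusted threshold. With no filter on low counts 4 of them were called, and 16 with the replicate number as a term. Both taPVAT libraries were above both BAT libraries for 105 of the 556 (18.9%) and below for 3 (0.54%), against 12.3% and 9.48% of all genes tested. The enriched genes took 4.30% and 7.78% of member UMIs in taPVAT and 4.69% and 5.16% in BAT. Their median log2 fold change was 0.26, against -0.01 over all genes, and -0.04 when the libraries were scaled on these genes alone, a scaling that set the median of all genes at -0.22.

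For the genes named next, enrichment was asked only in the tissue where a gene was higher: there, the endothelial level had to be at least 2 times the non-endothelial level in each library. The 10 such genes with the smallest p, higher in taPVAT in replicates 1 and 2, missed the adjusted threshold of the edgeR test above. Their values are therefore a description. DESeq2 called 3 of them, Ccn2, Nell1 and Sema3d, and edgeR with no filter on low counts called all but Dnm3 and Fbln2. With the replicate number as a term edgeR called all 10, and with scaling on the enriched genes Sema3d. Ccn2, a matrix-associated growth factor known as a target of YAP and TEAD, was at 21.9 and 42.9 CPM in taPVAT and 3.76 and 4.37 in BAT. Its log2 fold change was 2.91 ± 0.45 (SE; edgeR unadjusted p = 0.000533, adjusted p = 0.796). Outside the endothelium it was at 1.11 to 4.06 CPM in all 4 libraries, so the BAT endothelial values of this gene were near that background.

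The 250 bases before the start of Ccn2 are shown because binding by TEAD factors at this promoter is textbook knowledge and the letters of their core motif can be counted there. The motif was chosen after the sequence had been read. The sequence is RefSeq's for GRCr8, chr1:22624615-22624864, minus strand, a build other than the one the reads were aligned to, with the 6 letters GGAATG, searched on both strands, in capitals.
Ccn2: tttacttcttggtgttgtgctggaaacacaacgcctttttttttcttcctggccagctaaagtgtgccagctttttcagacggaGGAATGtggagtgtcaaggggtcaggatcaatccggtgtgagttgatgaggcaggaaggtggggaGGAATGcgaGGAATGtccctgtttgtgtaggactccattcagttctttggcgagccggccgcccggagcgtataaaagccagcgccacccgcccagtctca
The 3 matches begin 166, 101 and 92 bases before the start. At least 1 match stood in 12.1% of the 33469 promoters of this length, and 3 or more in 27 of them (0.0807%). RefSeq promoters were matched for 9 of the 10 genes, all but Vwf, and Ccn2 was the only one of these 9 with the motif. A match of letters is a description and not a binding site.

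Vwf encodes von Willebrand factor, the clotting glycoprotein that endothelial cells store for release. It was at 70.7 and 99.0 CPM in taPVAT and 32.2 and 16.4 in BAT, and at 1.68 to 3.13 outside the endothelium. Both taPVAT values were above both BAT values, with a log2 fold change of 1.78 ± 0.38 (SE; edgeR unadjusted p = 0.00321). At 800 UMIs a nucleus, 6.18% and 8.76% of taPVAT nuclei and 2.95% and 1.54% of BAT nuclei had a Vwf UMI, against 0.100% to 0.200% of non-endothelial barcodes. Before thinning the shares were 13.4%, 15.4%, 7.26% and 3.91%.

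Sema3d, a secreted semaphorin that guides cells through neuropilin and plexin receptors, was at 7.57 and 31.0 CPM in taPVAT and at 0.139 and 0.312 in BAT, where its level was that of 1 and 2 UMIs. Over the summed libraries the ratio was 46.9, with a 95% counting interval of 15.7 to 231, and the ratio of the library means was 85.5. The fitted log2 fold change was 6.17, but 4.97 without taPVAT replicate 2 and 6.92 without taPVAT replicate 1. Thsd7a, a thrombospondin-domain protein linked to endothelial migration, was at 109 and 151 CPM in taPVAT and 43.8 and 38.6 in BAT (log2 fold change 1.62 ± 0.29, SE), with a non-endothelial level of 4.61 and 5.31 CPM in taPVAT and 1.34 and 2.00 in BAT. Dnm3, a dynamin that acts in membrane fission, was at 152, 217, 75.2 and 71.3 CPM (1.30 ± 0.29, SE).

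The other genes had lower levels. Nell1, a secreted protein, was at 17.6 and 18.5 CPM in taPVAT and 3.06 and 3.75 in BAT (log2 fold change 2.36 ± 0.37, SE). Mctp1, a calcium-binding membrane protein, was at 35.6, 44.3, 12.2 and 9.05 CPM, and the matrix protein gene Fbln2 at 13.5, 17.7, 4.18 and 4.53. Fam163a was at 6.57 and 10.3 CPM in taPVAT and at 1.67 and 1.72 in BAT. For each of the 10 genes the groups did not overlap, a pattern that their choice by p and common direction favours. Veph1, a membrane-associated adaptor, was at 21.2, 27.3, 5.29 and 6.56 CPM, while outside the endothelium it was at 4.23 to 6.48 in all libraries, so its BAT values were at the background. The interaction, a test of whether the tissue difference itself differed between endothelial and non-endothelial nuclei, called 0 of 15462 genes (0%) in edgeR, with 223 at an unadjusted p under 0.05 (1.44%), and DESeq2 called 1, Veph1. The filter by which Veph1 and the other named genes were picked favours a positive interaction in advance, so nothing is drawn from that call and no fitted interaction of these 10 genes is given. Without taPVAT replicate 1 the edgeR interaction called 335 genes, and 2 to 16 without each of the other libraries.

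**Figure D4:**
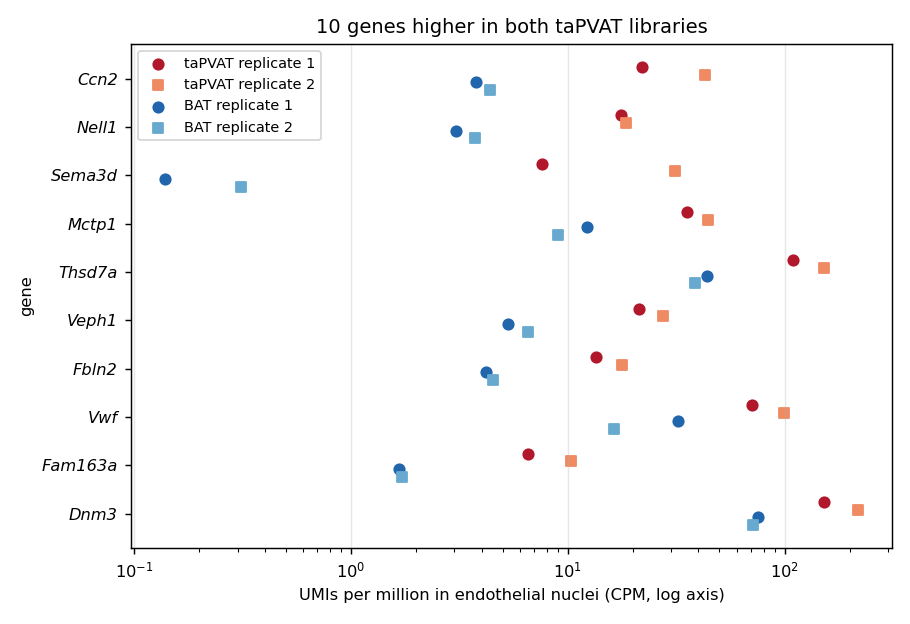
CPM (log axis) in the endothelial nuclei of each library for the 10 genes chosen for the smallest p among genes higher in taPVAT and at 2 times the non-endothelial level or more in both taPVAT libraries. Ccn2 is at 21.9 and 42.9 in taPVAT and 3.76 and 4.37 in BAT, and no gene overlaps between tissues, a pattern that their choice favours.

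The venous-like subset carried much of this RNA. Of the 10 genes, 9 had their highest mean level in subset 4, which held 6.06% to 85.1% of the UMIs of the 10 although it was 5.29% of the nuclei. Of 20 general endothelial genes 11 were highest there too, and the share over all genes was not counted. Sema3d had 103 of its 121 UMIs there. Its summed level in taPVAT replicate 1 was lower without the nuclei that had a UMI of lymphatic genes, as given below. In subset 4 of BAT, Sema3d had 0 UMIs, which allows up to 8.73 CPM over its 2 libraries (3 counts), while subset 4 of the taPVAT libraries had 84.0 and 440.4 CPM. Mctp1 had 63.2% of its UMIs in subset 4, Nell1 45.6% and Vwf 43.9%. Veph1 was the exception, with 6.06% there and its highest level in subset 1.

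Split by that subset, the same libraries gave other ratios. For Vwf the mean CPM of taPVAT divided by that of BAT was 3.50 over all endothelial nuclei, 1.58 inside subset 4 and 3.14 outside it. For Dnm3 it was 2.52, 1.72 and 1.86, and for Fbln2 3.59, 1.42 and 3.28. For Mctp1 it was 3.75, 2.20 and 1.68, and in subset 3 it was 0.579. Not all ratios were smaller inside subset 4: that of Nell1 was 5.42 inside and 5.30 over all nuclei, and that of Veph1 6.46 and 4.10. Veph1 had only 20 UMIs in subset 4 over all libraries, with a BAT mean of 4.24 CPM, so its ratio there is uncertain. The libraries of the tissues overlapped for Fbln2 inside subset 4 and for Mctp1 outside it. Vwf was at 427 and 702 CPM in subset 4 of taPVAT and at 360 and 352 in that of BAT. In the other nuclei Vwf was at 40.4 and 59.1 CPM in taPVAT and 21.0 and 10.6 in BAT. Ccn2 was at 77.6, 226, 33.9 and 27.8 CPM in subset 4, and at 17.2, 30.7, 2.73 and 3.97 elsewhere. These values come from the libraries that chose the genes and carry no test, and subset 4 of taPVAT replicate 2 had 21 nuclei. Without centring, subset 4 took a larger share in both taPVAT libraries than in those of BAT. Within taPVAT it took 8.48% in replicate 1 and 4.83% in replicate 2. Each of the 10 genes was higher in replicate 2 of taPVAT. The 556 enriched genes together also took more of the UMIs there, 7.78% against 4.30% in replicate 1. The part of subset 4 in the summed levels of these genes was not tested.

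**Figure D5:**
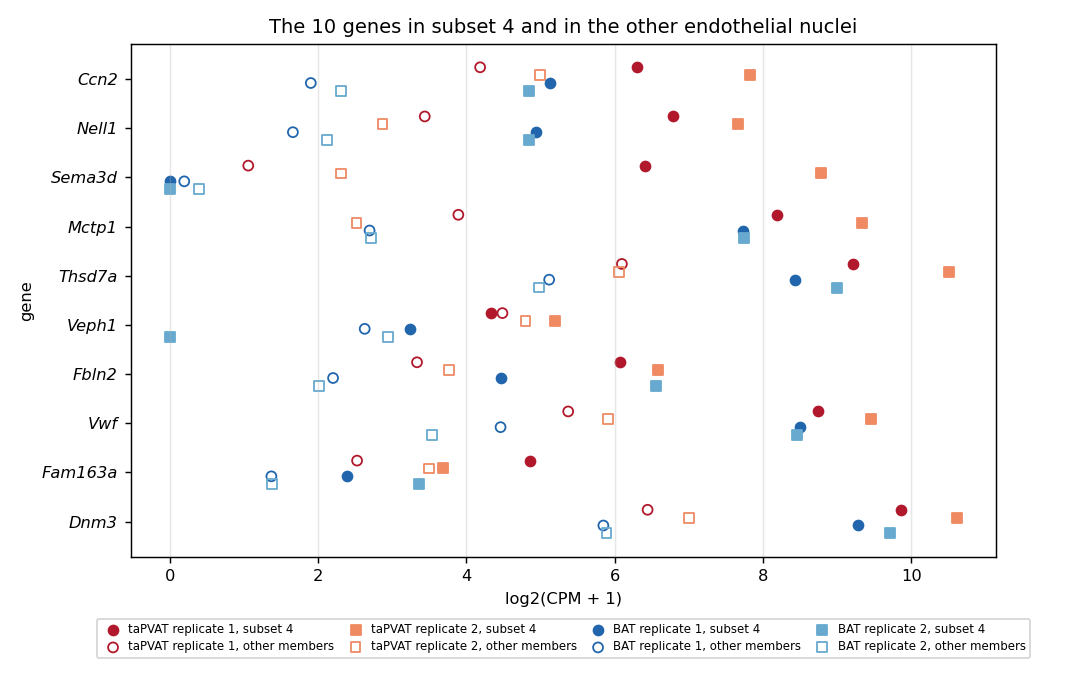
log2(CPM + 1) of the 10 genes in subset 4 (filled) and in the other endothelial nuclei (open) of each library. Sema3d has 0 UMIs in subset 4 of both BAT libraries, Vwf is at 352 CPM or more in subset 4 of every library, and Veph1 lies lower in subset 4 than elsewhere in 1 library of each tissue.

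Of 5 tested lymphatic genes outside the rule, 3 were higher in taPVAT at an unadjusted p under 0.05 in edgeR (1.51% of all genes), Reln, Ccl21 and Itga9, and none passed the adjusted threshold. Ccl21 passed it in DESeq2. Both Ccl21 and Reln did in edgeR with no filter on low counts, with the replicate number as a term and with scaling on the enriched genes. Reln, a secreted glycoprotein of lymphatic endothelium, was at 10.8 and 1.48 CPM in taPVAT and 0.557 and 0.937 in BAT. Ccl21, the lymphatic chemokine, was at 17.4, 8.13, 0.974 and 1.56 CPM, close to its non-endothelial level of 13.2, 5.86, 0.696 and 1.80. A UMI of Prox1, Mmrn1, Lyve1, Reln, Pdpn or Ccl21 was found in 206 (6.67%) and 14 (3.22%) of taPVAT nuclei and in 22 (1.12%) and 27 (1.49%) of BAT nuclei. These shares were not thinned to equal depth, and the same share in the non-endothelial barcodes was not measured. With Ccl21 close to its non-endothelial level, such a UMI does not by itself mark a lymphatic nucleus. In subset 4 of taPVAT replicate 1, Reln was at 87.8 CPM and Ccl21 at 61.1, and Reln had 0 UMIs in subset 4 of the other 3 libraries. A UMI of any of the 6 genes was found in 37 of 262 and 1 of 21 subset 4 nuclei in taPVAT. In BAT it was found in 0 of 65 and 0 of 39. Without the nuclei that had a UMI of these 6 genes, an alternative chosen after seeing the data, subset 4 took 7.81% and 4.75% in taPVAT and 3.34% and 2.18% in BAT. The 10 genes then had log2 fold changes of 1.32 to 6.01, and Sema3d was at 4.20, 32.4, 0.141 and 0.318 CPM. For Sema3d the value of taPVAT replicate 1 was lower than over all endothelial nuclei, and those of the other libraries were slightly higher. The part of lymphatic nuclei in the level of Sema3d was not tested.

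Among ligands and receptors of vessel growth, 1 of 12 tested genes of the VEGF, angiopoietin and apelin list was higher in taPVAT at an unadjusted p under 0.05 (background 1.51%), and none passed the adjusted threshold. It was Vegfc, the ligand of the receptor encoded by Flt4, at 42.1 and 52.5 CPM in taPVAT and 21.4 and 23.3 in BAT (log2 fold change 1.04 ± 0.29, SE, edgeR unadjusted p = 0.011). With the replicate number as a term edgeR called Vegfc. Flt4 itself was at 14.7, 44.3, 10.9 and 32.0 CPM and overlapped. The angiopoietin receptor gene Tek was at 209, 228, 242 and 151 CPM. Vegfa and Angpt1 were lower in both taPVAT libraries, but also below their non-endothelial level in every library.

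The BMP and ALK1 list had 2 of 12 genes higher and 1 lower at an unadjusted p under 0.05 in edgeR (1.51% and 0.461% of all genes), and none passed the adjusted threshold. Bmp6, a ligand secreted by endothelium, was at 151 and 262 CPM in taPVAT and 111 and 72.3 in BAT, and outside the endothelium at 1.64 to 5.70. Id3, a transcriptional target of BMP signalling, was at 45.8, 79.1, 24.2 and 35.0 CPM, and edgeR called it with the replicate number as a term. Both taPVAT values lay above both BAT values for 6 of the 12, against 12.3% of all genes and 18.9% of the enriched genes, among them the receptor gene Acvrl1 (43.2, 81.3, 36.0 and 39.3 CPM) and the inhibitor gene Smad6 (93.3, 70.9, 62.6 and 28.7). Bmper, a secreted regulator of BMPs, was at 12.4, 11.1, 18.0 and 29.5 CPM, lower in taPVAT but below its non-endothelial level in every library. The median log2 fold change of the list was 0.65, and 0.40 with scaling on the enriched genes.

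Vasoactive genes had 2 of 12 higher in taPVAT at the unadjusted level (1.51% of all genes). Ptgs1, the constitutive cyclooxygenase that starts prostaglandin synthesis, was at 5.88 and 8.87 CPM in taPVAT and 1.81 and 1.87 in BAT (log2 fold change 1.89 ± 0.48, SE; edgeR unadjusted p = 0.00703). Adm, the vasodilator adrenomedullin, was at 3.79, 2.96, 1.25 and 1.09 CPM, near its non-endothelial level of 1.65 to 2.85. Slco2a1, which takes up prostaglandins, was at 10.6, 15.5, 4.04 and 2.65 CPM (1.88 ± 0.43, SE), and edgeR called it with the replicate number as a term. Ednrb, the endothelin B receptor, was at 41.1, 76.1, 24.6 and 42.6 CPM and overlapped, as did Npr1, the natriuretic peptide receptor (41.9, 120, 43.0 and 57.9 CPM), and Nos3.

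No gene of 4 lists reached an unadjusted p under 0.05 in edgeR: Notch (0 of 10), flow sensing (0 of 9), junctions (0 of 9) and basement membrane (0 of 9). With 1.97% of all genes at that level in either direction, a count of 0 in lists of this size is near the background. Klf2 and Klf4, transcription factors that respond to shear stress, were higher in replicate 2 of both tissues: Klf2 was at 14.7 and 41.4 CPM in taPVAT and 14.6 and 53.4 in BAT, and Klf4 at 64.6, 204, 48.2 and 114. Cldn5, the tight-junction claudin of endothelium, was at 25.4, 59.8, 21.0 and 28.4 CPM. The Notch receptor gene Notch4 was at 65.3, 105, 71.8 and 67.7 CPM. These genes overlapped between the tissues.

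Of the lipid and marker lists, the fatty acid list had 1 of 16 genes higher at that level, where 1.51% of all genes were, the share to set beside each count of this paragraph. It was Fabp5, a fatty acid binding protein, at 37.6 and 34.0 CPM in taPVAT and 23.0 and 17.3 in BAT (log2 fold change 0.81 ± 0.29, SE). Lpl, Acsl1 and Pparg, which adipocytes make in quantity, were below their non-endothelial level in every library. Of the venous list, 2 of 8 genes were higher at the unadjusted level, Vwf and Vcam1, the leukocyte adhesion molecule (9.66, 19.9, 4.73 and 6.56 CPM; 1.27 ± 0.49, SE). The arterial list had 1 of 10, Cxcl12, a chemokine (304, 500, 244 and 131 CPM; 1.08 ± 0.40, SE). Among general endothelial genes 1 of 23 was higher, St6galnac3, a sialyltransferase, at 436, 651, 321 and 296 CPM. Cd74, the invariant chain of MHC class II, was at 17.0 to 19.3 CPM, against 17.5 to 21.4 outside the endothelium, and the class II gene RT1-Db1 at 5.17 to 7.77 CPM, against 6.93 to 10.4.

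Positional transcription factors had 2 of 13 genes higher and 1 lower at the unadjusted level (1.51% and 0.461% of all genes). Foxp2 was at 404 and 147 CPM in taPVAT and 49.0 and 19.4 in BAT, but at 510, 278, 64.9 and 25.3 in the non-endothelial barcodes. It missed the adjusted threshold in the edgeR test above but passed it in DESeq2. In edgeR it also passed with no filter on low counts, with the replicate number as a term and with scaling on the enriched genes. Its log2 fold change was 3.01, and 2.06 to 3.76 when 1 library was left out. Tbx15, a transcription factor of brown fat and of trunk position, was at 6.77 and 1.48 CPM in taPVAT and 38.8 and 15.5 in BAT. These values were again below its non-endothelial level in each library. Tbx15 was called by edgeR with no filter on low counts and with the replicate number as a term. Its log2 fold change was -2.42, and -4.22 to -1.69 when 1 library was left out. The fitted interactions of Foxp2 and Tbx15 were -0.28 and -0.10. With 2 libraries per tissue these values do not show that the tissue difference was equal in endothelial and non-endothelial nuclei. Foxc1, a forkhead factor of vascular development, was at 3.69, 6.65, 1.25 and 1.40 CPM, above its non-endothelial level of 0.0626 to 1.46 in each library (log2 fold change 1.78 ± 0.56, SE). Hoxb6 was at 3.19, 2.22, 4.04 and 2.03 CPM in the endothelial nuclei and at 0.0766 to 0.379 outside. Zic1 had 0 UMIs in the endothelial nuclei of both taPVAT libraries and was at 1.25 and 1.56 CPM in BAT, below its level outside the endothelium.

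In the other direction 56 genes (0.461%) were lower at the unadjusted level and 0 were called by the edgeR test above. On the same 4 libraries edgeR called 19 lower genes with no filter on low counts. It called 24 with the replicate number as a term and 2 with scaling on the enriched genes. The 10 genes with the smallest p that were lower in taPVAT and at 2 times the non-endothelial level or more in both BAT libraries all had an unadjusted edgeR p above 0.05. Trank1 was at 1.89 and 2.96 CPM in taPVAT and 2.92 and 18.6 in BAT, so that 1 BAT library carried its difference. Its log2 fold change was -2.36 and -0.41 without BAT replicate 2, and edgeR called it with no filter on low counts and without BAT replicate 1. Vdr, the vitamin D receptor, was at 3.79 and 5.17 CPM in taPVAT and at 7.1 and 6.56 in BAT (log2 fold change -0.71 ± 0.42, SE), above the 0.306 to 0.620 outside the endothelium. F2r, the thrombin receptor, was at 3.69 in each taPVAT library and at 5.85 and 6.40 in BAT.

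Markers of other cell types were measured in the same sums. No adipocyte gene of 13 tested reached the unadjusted level in either direction, which is near the 1.97% of all genes. In both taPVAT libraries 4 of the 13 were below both BAT libraries (Lipe, Dgat2, Ghr and Cidea), against 9.48% of all genes, and the median log2 fold change of the list was -0.39. Of 7 fibroblast genes 2 were higher in taPVAT at an unadjusted p under 0.05 in edgeR (1.51% of all genes) and 0 were called, Fbn1 (55.4, 91.6, 29.5 and 32.9 CPM) and Pi16 (17.4, 22.2, 7.66 and 7.80 CPM). Both taPVAT values were above both BAT values for these and for Lama2 (12.3% of all genes), and the summed level of the list was 177 and 234 CPM in taPVAT and 132 and 158 in BAT, which is 74.6% to 81.3% of its non-endothelial level. Wt1, a mesothelial gene, was at 5.48, 5.91, 0 and 0.312 CPM, and Krt19, on the same list, was at 0 in every library. Fbln2 is also made by fibroblasts, and the part of RNA from other cells in the values of any of these genes was not tested.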

How the data were processed

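The deposited matrices hold raw UMI counts per gene and barcode, made with Cell Ranger 7.1.0 on the Rnor_6.0 build per the submitters' processing notes; the sources used here do not state how introns and strand were counted, which leaves overlapping genes uncertain. Library totals were 63654436 to 158140959 UMIs. UMIs of member nuclei were summed per library and tested with edgeR 4.0.16 (R 4.3.3; TMM, filterByExpr, quasi-likelihood, Benjamini-Hochberg), taPVAT over BAT, on the 4 libraries. The interaction test added the sums of non-endothelial barcodes. DESeq2 1.42.0 was an alternative. The edgeR script was tested on simulated data. Named genes were those of the fixed lists that led by level or p, the 10 per direction with the smallest p among genes with a common direction in both replicate numbers and at 2 times the non-endothelial CPM or more in each library of the tissue where they were higher, and the 15 with the highest enrichment at 50 CPM or more. Subsets came from scanpy 1.11.5 and leidenalg 0.10.2. Doublets were left out only as an alternative: Scrublet called none in BAT replicate 1, where the highest scores were removed instead. The members, lists and alternatives were chosen with earlier results of these data known. Promoters came from RefSeq (GRCr8).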

Additional observations from a re-analysis of the deposited data

How the results depend on the processing

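Each tissue had 2 libraries, and taPVAT replicate 2 gave 435 nuclei, so its low genes rest on few UMIs. The count of 0 genes called for the tissue became 15 with DESeq2, 63 with no low-count filter (all but Dnm3 and Fbln2 of the 10 genes named as higher, and Trank1), and 1 to 26 when 1 library was left out (1 without taPVAT replicate 1, 17 without taPVAT replicate 2, 12 without BAT replicate 1, 26 without BAT replicate 2; a tissue left with 1 library was assumed to vary like the other). It became 14 with scaling on the enriched genes, chosen after seeing the data. It stayed 0 with no scaling factors, without mitochondrial genes, without Scrublet-called barcodes, with at least 6 UMIs and 4 genes, with at least 1000 genes, with low adipocyte share and, chosen after seeing the data, in nuclei of low depth or without lymphatic UMIs. The interaction count of 0 became 1 with DESeq2, 24 with no filter, and 2 to 335 when 1 library was left out (335 without taPVAT replicate 1, 12 without BAT replicate 1, 16 without taPVAT replicate 2, 2 without BAT replicate 2). The replicate block, with the number as a term, called 114 genes, 90 of them higher in taPVAT and 24 lower. They included all 10 genes named as higher, and Foxp2, Tbx15, Ccl21, Reln, Vegfc, Id3 and Slco2a1. Deviations of same-numbered libraries correlated at 0.599 over 12159 genes and 0.830 over the 556 enriched genes. There are only 2 pairs, and no label says what a number marks, so what same-numbered libraries have in common is not known and was not tested. Within number 1 the difference in endothelial share was 1.49 points and within number 2 -3.26. When 1 library was left out that difference ran from -2.71 to 0.945, and that of the venous share from -0.757 to 6.78. Of 571 alternative fold changes of 38 genes (the 20 of the p rule and 18 others), 517 kept their side of the threshold, 54 passed it and 0 changed sign. The 20 were picked by p and a common direction, which favours a kept sign in advance, so nothing is drawn from the 0. The cause of the shifts between settings was not tested.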

Other observations

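Several endothelium-enriched genes followed the replicate number in both tissues, as subsets 1 and 2 did. Slc7a1, the cationic amino acid transporter, was at 10.1 CPM in replicate 1 and 101 in replicate 2 of taPVAT, and at 9.46 and 79.1 CPM in BAT. Nes, the intermediate filament gene nestin, was at 9.36, 53.9, 12.0 and 38.6 CPM in the same order. In the other direction Pcdh17 was at 108, 39.2, 106 and 17.8 CPM, and Tnfsf10, the death ligand TRAIL, at 31.7, 14.0, 26.6 and 8.43. For each of these genes the libraries of one number lay apart from those of the other in both tissues. They were picked for this pattern after their values were seen and carry no test.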
